A study of Arabidopsis thaliana with 27 samples.

Results

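The 43 genes described here lie on the chloroplast (plastid) genome of Arabidopsis thaliana and encode subunits of the photosynthetic machinery. They were chosen from 13350 genes that had a probe set assigned to them alone, by a plastid locus code and a symbol starting with psa, psb, pet, atp, ndh or rbcL. The 43 genes comprise 5 of photosystem I (psa), 15 of photosystem II (psb), 6 of the cytochrome b6f complex (pet), 6 of the ATP synthase (atp), 10 of the NADH dehydrogenase-like (NDH) complex (ndh) and rbcL of Rubisco. Each had 1 such probe set. The probe set of ndhB was assigned to both copies of that gene and was not used.

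The arrays measured RNA of tissues cut by laser from embryos of the Col-0 accession (stock N1092), with no treatment, transgene or embryo age in the labels. At the globular stage, when the embryo is a ball of cells, an apical and a basal part were captured (3 arrays each). At the heart stage, when the cotyledons emerge, the cotyledon pole and the root pole were captured (3 arrays each), and at the torpedo stage, when the axis has lengthened, the cotyledon and root captures had 2 arrays each and the meristem, apical and basal captures 3 each. A further 2 arrays, whose title and tissue description name opposite tissues, entered no comparison, and 1 array (globular apical 1) has a growth description of its own. Nothing in the labels says which plant or embryo a capture came from. The p-values therefore rest on differences between arrays of a group, and these may be technical.

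In chloroplasts, photosystem II takes electrons from water, the cytochrome b6f complex passes them on towards photosystem I, and the ATP synthase uses the proton gradient that results. The NDH complex returns electrons from photosystem I to the plastoquinone pool, and the large subunit of Rubisco (rbcL) binds carbon dioxide in the Calvin cycle. Each complex also needs subunits made from nuclear genes. Plastid genes are mostly transcribed together in groups of neighbours (operons), and Arabidopsis embryos are green for part of their development before they lose their chlorophyll late in seed maturation.

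Values are Affymetrix signals on a linear scale scaled by the authors to the same trimmed mean on every array (at most 100.02). Differences are on the log2 scale after 10 was added to each signal, with the standard error (SE) of a limma fit over 25 arrays, and p-values were adjusted over the 20890 probe sets that reached a signal of 50 on at least 2 arrays. Of the 43 genes, 42 passed this filter. psbH, which encodes a photosystem II phosphoprotein, did not: it reached 50 on only 1 of these 25 arrays (67.0 on torpedo basal 4). A probe set's brightness depends on its probes, so signals were compared between arrays and not between genes. Fewer cells of a type and less RNA per cell cannot be told apart in such captures.

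The arrays differed in quality. Spiked hybridization controls spanned 189-fold, and 4 grouped arrays (heart cotyledon 2, torpedo root 1, torpedo root 3 and torpedo meristem 1) had a median correlation with the other arrays under 0.4. The 2 torpedo root arrays correlated at 0.154 with each other. Signals were deposited unrounded for the torpedo meristem, apical and basal captures (9 arrays) and with 1 decimal for the other 16 grouped arrays. Wherever these 9 are set against other arrays, the form of deposit and the tissue cannot be told apart. The labelled tissue could not be checked with embryo markers, since none of the 5 listed had a probe set of its own. Of the other tissues of the seed, 2 of 9 endosperm markers and 1 of 9 seed coat markers were measured, and their signals stand beside the main result.

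Part of the chloroplast genes reached a signal of 50 in all 3 stages, a filter level that is not a detection call. Between 22 and 32 of the 43 genes reached a signal of 50 on each of the 25 arrays (51.2 to 74.4% of them), while 37.1 to 58.6% of all probe sets did. psbI, psbM, petA, atpE, ndhC and rbcL reached 50 on all 25 arrays, and 10 other genes did so on 20 to 24. A further 10 genes reached it on 2 to 9 arrays only, and 5 of these encode NDH subunits. The highest signals exceeded 10000 for psaB, psbI, psbM, atpE and ndhC.

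**Figure D1:**
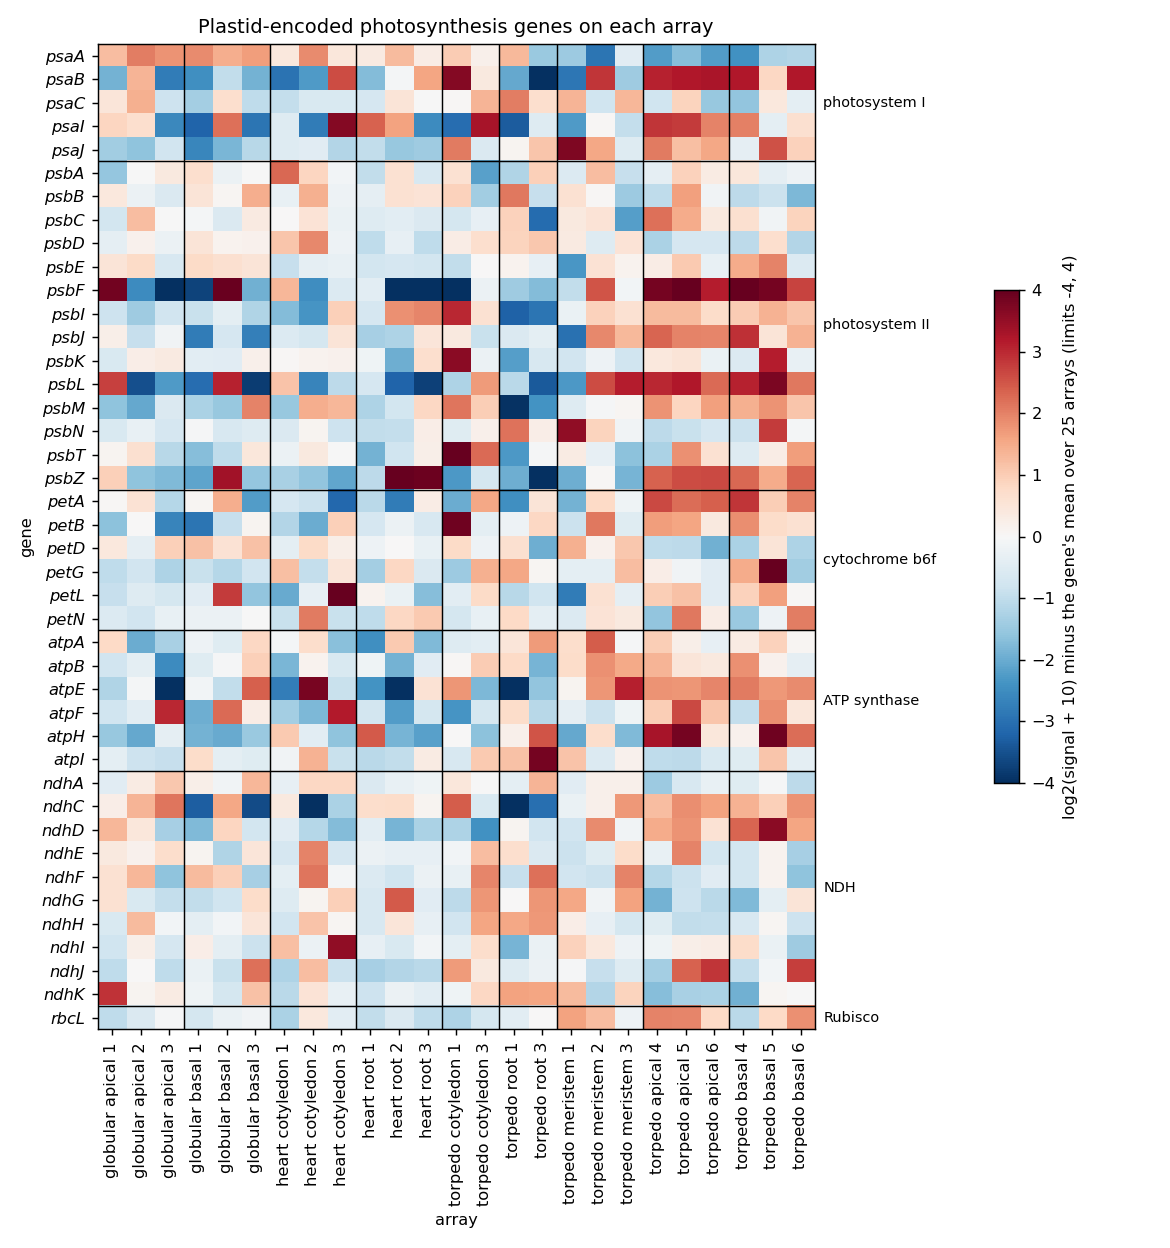
Each row is 1 of the 42 genes tested and each column 1 of 25 arrays, in stage order; colour gives log2(signal + 10) minus the gene's mean over the arrays, and black lines separate groups and complexes. In the torpedo apical and basal columns psbF, psbL, petA and ndhD are red on all 6 arrays and psaA is blue.

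Chloroplast genes were called between the torpedo apical and basal parts and the cotyledon and root poles of the heart stage (6 arrays each). The first were deposited unrounded and the second with 1 decimal, so stage and form of deposit cannot be told apart in this result. No other comparison between stages or between tissues of a stage gave a call, including that of torpedo cotyledon and root captures with the heart. In the torpedo parts, psbF, psbL, petA and ndhD rose and psaA fell past the threshold of 0.05. These 5 of 42 genes are 11.9%, against 1.26% of all probe sets tested (264 of 20890). At an unadjusted p under 0.05, 16 genes were higher and 2 lower in the torpedo parts, 42.9% of the 42 against 19.9% of all probe sets. The median difference of the 42 genes was 1.09, and that of all probe sets -0.24.

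psbF encodes the beta subunit of the cytochrome bound to photosystem II. Its signal was 4567, 5186 and 2857 in torpedo apical arrays and 5317, 4582 and 2124 in torpedo basal arrays, against 808, 47.4 and 210.2 in heart cotyledon arrays and 229.6, 9.5 and 4.8 in heart root arrays. Every torpedo array was above every heart array, and the log2 difference was 5.37 (SE 1.22, limma adjusted p = 0.0269). psbL, a small photosystem II subunit, is the next gene of the same operon. Its signal lay between 869.6 and 2746 in the torpedo parts (median 1661), against 5.2 to 440.5 in heart tissues (median 54.9). Again the groups did not overlap, and the difference was 4.60 (SE 1.14, limma adjusted p = 0.0399).

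petA encodes cytochrome f, which hands electrons to plastocyanin. It had signals of 4073, 3110 and 3438 in torpedo apical arrays and 4735, 1306 and 2599 in torpedo basal arrays, against 406.9, 356.4 and 65.0 in heart cotyledon arrays and 300.2, 85.3 and 798.0 in heart root arrays. All 6 torpedo signals exceeded all 6 heart signals, by a log2 difference of 3.55 (SE 0.81, limma adjusted p = 0.0276). ndhD, a membrane subunit of the NDH complex, had 616.3, 766.8 and 321.1 in torpedo apical arrays and 1096, 2715 and 647.7 in torpedo basal arrays, against 152.3, 90.6 and 56.3 in heart cotyledon arrays and 155.6, 50.7 and 81.8 in heart root arrays. The ranges were apart on all arrays, and the difference was 3.05 (SE 0.61, limma adjusted p = 0.0130).

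psaA, which encodes 1 of the 2 large reaction-centre proteins of photosystem I, went the other way. Its signal was 12.4, 22.1 and 12.2 in torpedo apical arrays and 9.57, 34.6 and 36.8 in torpedo basal arrays, against 130.3, 375.3 and 134.7 in heart cotyledon arrays and 123.0, 240.9 and 119.2 in heart root arrays. It fell in the torpedo parts by 2.61 on the log2 scale (SE 0.52, limma adjusted p = 0.0126), to signals below 50 on all 6 arrays, where the values do not say whether the transcript was above background. psaB, which encodes the partner of psaA in the reaction centre and lies next to it in the same operon, had signals of 9807, 10726 and 11381 in torpedo apical arrays and 10824, 2092 and 10788 in torpedo basal arrays. In the heart stage it had 142.2, 235.4 and 7126 in cotyledon arrays and 345.6, 1111 and 3464 in root arrays. The difference of psaB was 3.27 (SE 1.09) and did not pass the test (limma adjusted p = 0.111).

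**Figure D2:**
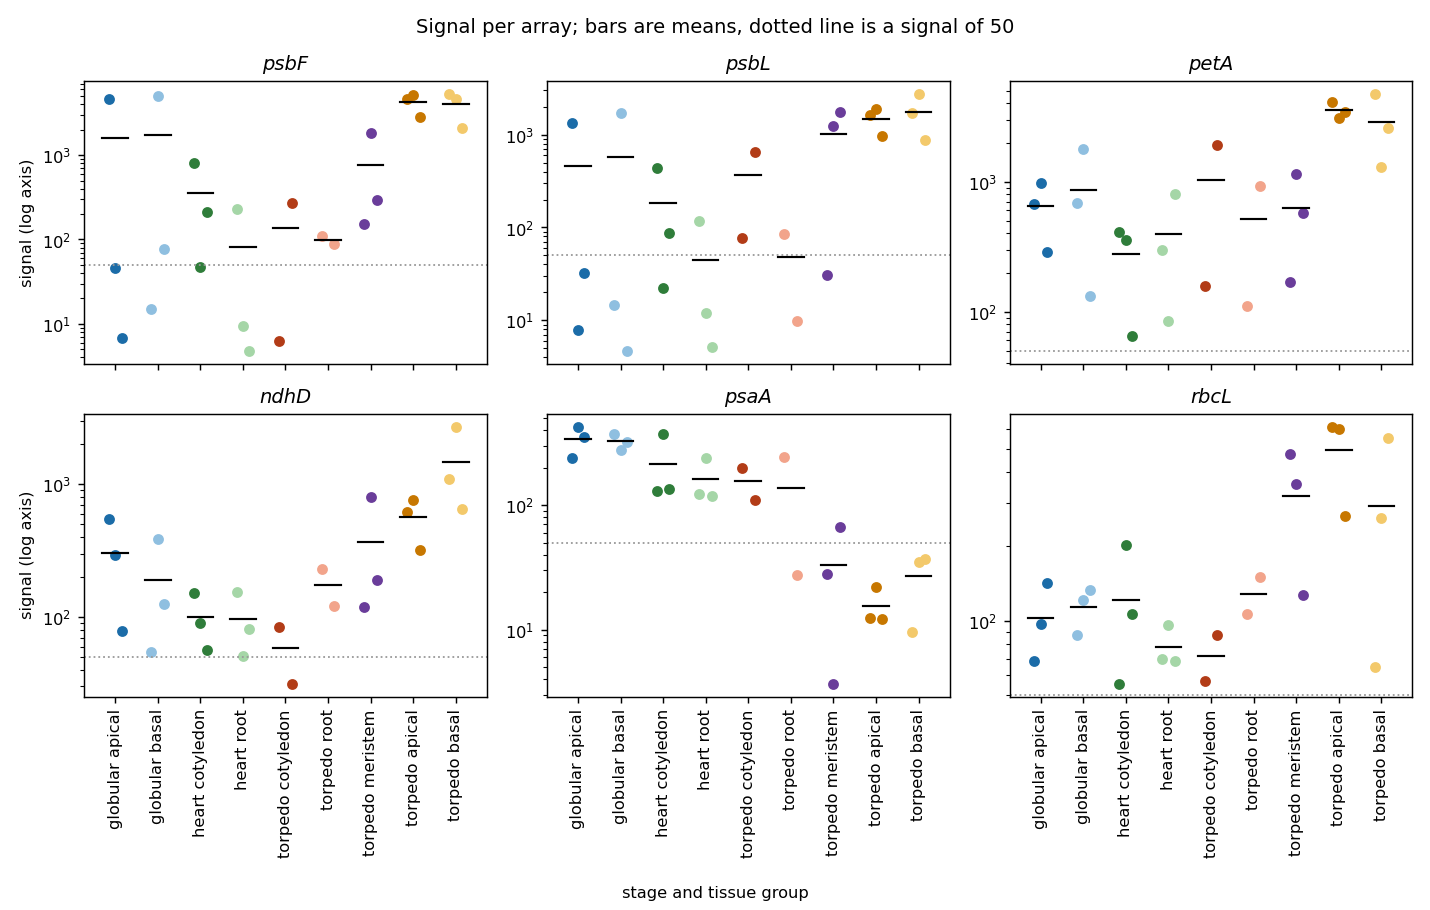
Signal on a log axis for the 5 genes that passed the test between torpedo parts and heart tissues, and for rbcL; points are arrays, bars are means over the 2 or 3 arrays of a group, and each panel has its own axis. psbF and psbL reach above 800 on all 6 torpedo apical and basal arrays, and psaA stays below 50 on them.

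6 genes had every torpedo apical and basal array above every heart array (14.3% of 42, against 0.977% of all probe sets), and 1 had every such array below (2.38%, against 1.82%). Beside psbF, psbL, petA and ndhD these were psaJ, a small photosystem I subunit, and ndhC, a membrane subunit of the NDH complex. psaJ had 64.3 to 551.2 in the torpedo parts (median 239.3), against 23.5 to 59.6 in heart tissues (median 35.4), a difference of 2.33 (SE 0.62, limma adjusted p = 0.0545). ndhC had 4850 to 9114 in the torpedo parts, against 133.3 to 4196 in heart tissues, a difference of 2.05 (SE 0.97, limma adjusted p = 0.237). Neither passed the threshold. The 1 gene with every array below was psaA.

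By value, 39.3% of all probe sets were higher in the torpedo parts. Of 14 photosystem II genes, 11 were higher (78.6%), with a median difference of 1.13. The ATP synthase had 5 of 6 higher with a median of 1.54, the cytochrome b6f complex 5 of 6 with a median of 0.64, and photosystem I 3 of 5 with a median of 1.35. In the NDH complex 3 of 10 genes were higher by value (30.0%, near the share of all probe sets), with a median of -0.64. These 3 were ndhD, ndhC and ndhJ, and the lowest was ndhG, a membrane subunit (difference -1.23, SE 0.62, limma adjusted p = 0.269). Whether the complexes differ from each other was not tested. When heart cotyledon 2 was left out, the medians of photosystem I and NDH became 0.62 and -0.39. That of photosystem I became 0.60 when heart root 3 was left out and 2.21 when heart cotyledon 3 was. For cytochrome b6f, leaving out heart cotyledon 1 gave a median of 0.38, heart cotyledon 3 one of 1.22, torpedo basal 5 one of 0.21 and torpedo basal 6 one of 1.11.

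Several genes that did not pass also had large differences or stood at the other end. rbcL had 612.8, 598.1 and 265.3 in torpedo apical arrays and 64.5, 261.1 and 551.9 in torpedo basal arrays, against 55.4 to 203.1 in heart tissues (median 82.8). Its difference was 1.68 (SE 0.52, limma adjusted p = 0.0889), with torpedo basal 4 inside the heart range. atpE, the epsilon subunit of the ATP synthase, was steady in the torpedo parts (9341 to 11903) and ran between 107.6 and 39480 in heart tissues, a difference of 2.91 (SE 1.15, limma adjusted p = 0.168). petD, which encodes subunit IV of the cytochrome b6f complex, had a difference of -1.03 (limma adjusted p = 0.249), and psbB, a core antenna protein of photosystem II, one of -0.83 (limma adjusted p = 0.429). psbA, which encodes the reaction-centre protein of photosystem II with rapid turnover in light, differed by -0.20 (SE 0.59).

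**Figure D3:**
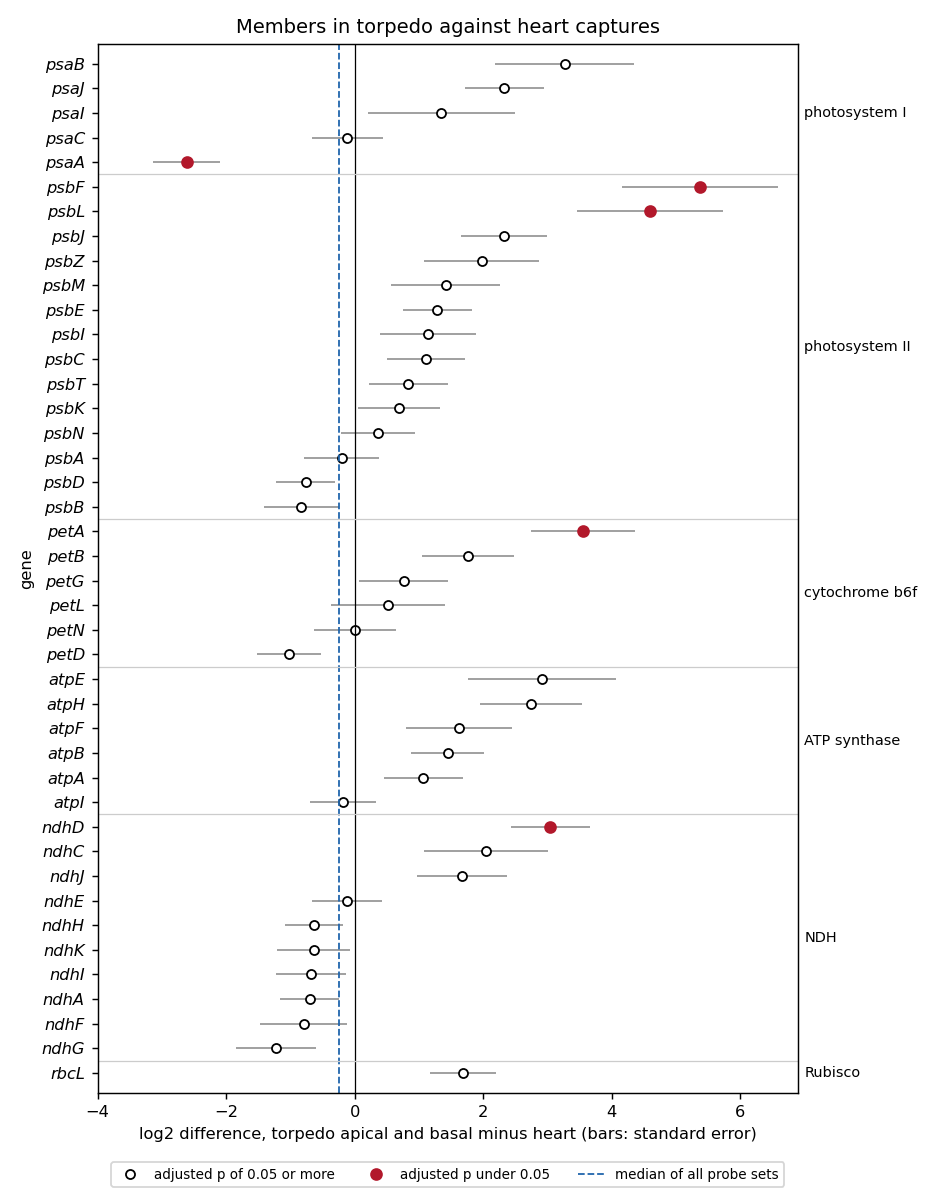
Log2 difference of each of the 42 genes between torpedo apical and basal parts and heart tissues (6 arrays each), ordered within complexes, with bars of 1 standard error; filled points passed the test and the dashed line is the median of all probe sets, -0.24. psbF lies farthest to the right at 5.37 and psaA farthest to the left at -2.61.

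These calls differed in how far they depended on single arrays. ndhD and psaA passed in all 25 alternative fits, with an adjusted p of at most 0.0430 for ndhD and 0.0492 for psaA. psbF lost its call in 10 of them, psbL in 12 and petA in 8. The number of genes called was 2 without heart root 2, heart cotyledon 3, torpedo basal 4, torpedo basal 6, torpedo apical 4, torpedo apical 5 or torpedo apical 6 (72 to 105 of all 20890 probe sets called, against 264 in the main fit). It was 3 without heart cotyledon 2 or heart root 3 (137 and 143 of all probe sets). With quantile normalization or without the arrays of low correlation it was 3 (153 and 167 of all probe sets). Array weights gave 11, where psaJ, psaB, psbJ, atpE, atpH and rbcL passed as well. In that fit 2486 of all probe sets were called, so the rise in calls was not particular to these genes.

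Other measures moved with the same contrast. The log2 ratio of the 3' to the 5' actin control probe sets, a sign of shortened RNA or cDNA, lay between 2.40 and 5.31 in the torpedo parts and between -1.85 and 1.92 in heart tissues. The same ratio of the GAPDH control overlapped, at 5.65 to 8.65 in the torpedo parts and 5.64 to 9.21 in heart tissues. Spiked controls were 0.24 to 0.50 times the median in the torpedo parts and 0.37 to 2.42 times in heart tissues. The mean correlation of an array with the others of its group was 0.495 to 0.873 and 0.275 to 0.558. The summed signal of the 2 endosperm markers (AGL62 and IKU2) was 8.52 to 51.3 in the torpedo parts and 20.6 to 189.4 in heart tissues. The seed coat marker BAN had 1.72 to 16.3 in the torpedo parts and 5.1 to 168.9 in heart tissues. Over the 25 arrays AGL62 reached a signal of 50 on 8, and IKU2 and BAN on 4 each. Signals below that level do not say whether a marker's transcript was above background. The part of these measures and of these tissues in the result was not tested.

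The other plastid genes were described beside the 42. Of 26, which encode mainly ribosomal proteins and subunits of the plastid RNA polymerase and include ycf3 and ycf4, assembly factors of photosystem I, and ccsA, needed for heme attachment to cytochrome f, 19 were higher by value in the torpedo parts (73.1%, against 39.3% of all probe sets), with a median of 0.79. Those that rose past the threshold (11.5%, against 1.26% of all probe sets called) were rps4 (4.23, SE 0.76, limma adjusted p = 0.00514), rpl22 (2.99, SE 0.54, limma adjusted p = 0.00525) and rpl16 (2.79, SE 0.69, limma adjusted p = 0.0401), all of the plastid ribosome. None fell past it. The 4 subunits of the plastid RNA polymerase (rpoA, rpoB, rpoC1 and rpoC2) had differences between -0.32 and 0.92.

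Of 57 nuclear genes listed for photosynthesis, 12 had a probe set of their own, and 10 of these were higher by value (83.3%, against 39.3% of all probe sets) with a median of 0.62. ATPC1, the nuclear gamma subunit of the ATP synthase, alone rose past the threshold (8.3% of the 12, against 1.26% of all probe sets called; 3.13, SE 0.72, limma adjusted p = 0.0297). The minor antenna genes LHCB4.1 and LHCB4.2 had differences of 1.72 and 2.04, with limma adjusted p of 0.232 and 0.194. The 2 lower genes were NdhL (-1.56, limma adjusted p = 0.107) and NdhN (-1.15, limma adjusted p = 0.249), nuclear subunits of the NDH complex. Of 11 nuclear genes for plastid transcription only AT5G15700, which encodes a phage-type RNA polymerase, was measured, with a difference of -0.31.

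**Figure D4:**
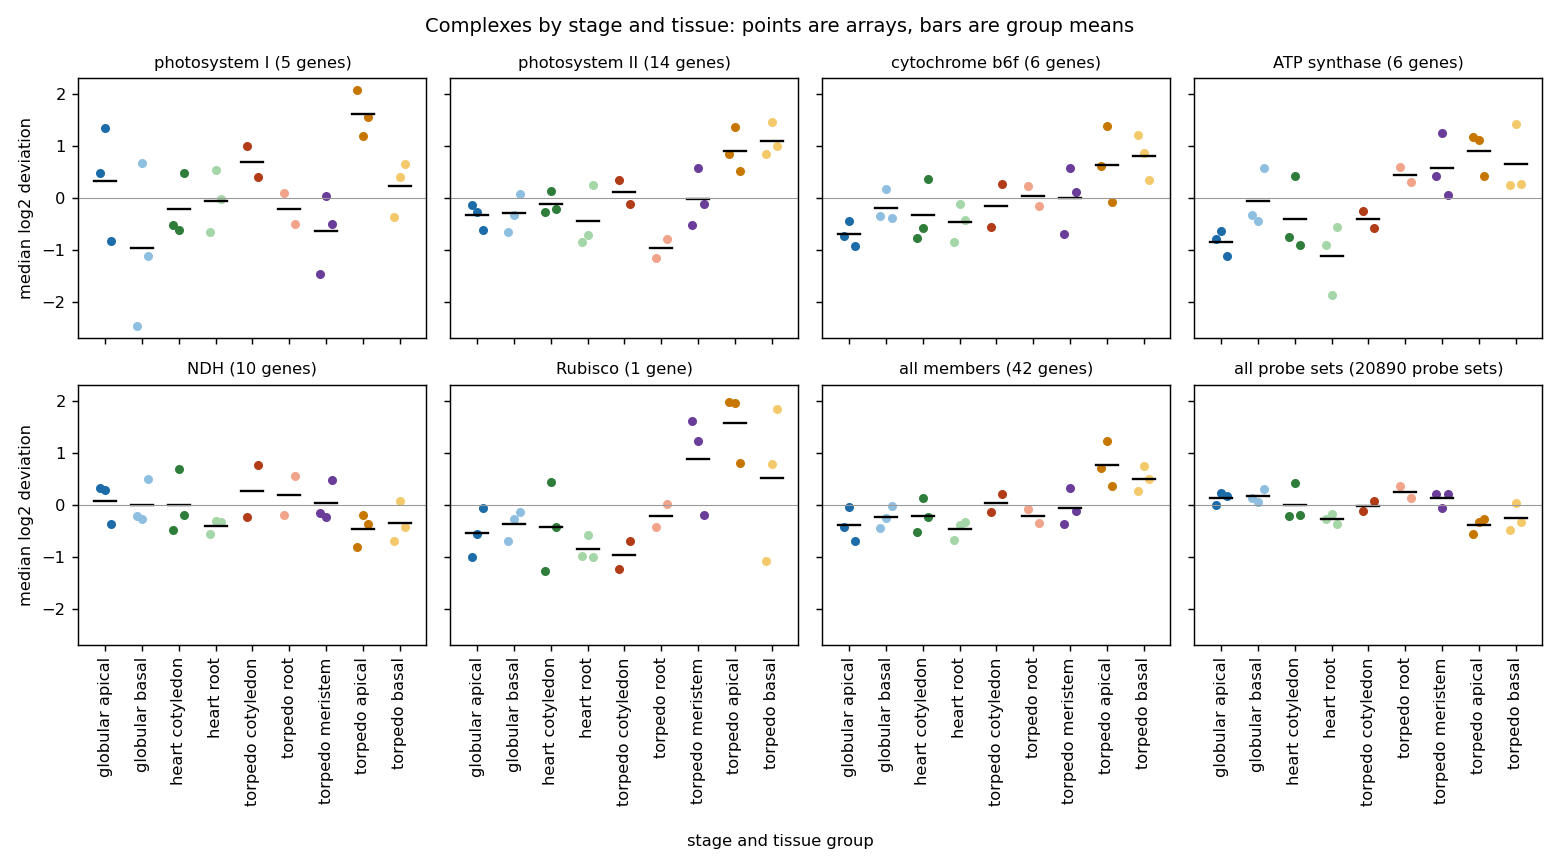
Median log2 deviation over the genes of a complex on each array (points) with group means (bars), from the globular to the torpedo stage; the last panels show the 42 genes together and all 20890 probe sets. The median of the 42 genes is 0.26 to 1.22 on torpedo apical and basal arrays and -0.68 to 0.13 on heart arrays, while for NDH the same arrays overlap.

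On the scale of whole arrays, the median deviation of the 42 genes from their means over all arrays was 0.76 ± 0.43 (SD, n = 3) in torpedo apical arrays and 0.50 ± 0.25 (SD, n = 3) in torpedo basal arrays. It was -0.21 ± 0.33 (SD, n = 3) in heart cotyledon arrays and -0.47 ± 0.19 (SD, n = 3) in heart root arrays. The corresponding values of all probe sets were -0.39 ± 0.16 and -0.26 ± 0.27 in the torpedo apical and basal arrays and 0.00 ± 0.37 and -0.27 ± 0.09 in the heart cotyledon and root arrays (SD, n = 3 each). All 6 torpedo arrays lay above all 6 heart arrays in the median of the 42 genes, and the 2 sets overlapped in the median of all probe sets.

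The torpedo cotyledon and root captures (4 arrays) gave a second comparison with the heart tissues, in which the signals have the same form of deposit. Both root arrays were among those of low correlation. Spiked controls were 5.91, 19.63 and 45.23 times the median on torpedo root 1, torpedo cotyledon 3 and torpedo root 3. The actin log2 ratio was -1.46 to 1.84, against -1.85 to 1.92 in heart tissues. That of GAPDH was -3.28 to 6.43, against 5.64 to 9.21. The endosperm sum (37.9 to 150.0) and BAN (8.9 to 27.5) lay inside their heart ranges. None of the 42 genes passed the limma test (smallest adjusted p = 0.244), and 0.0191% of all probe sets did. On arrays of this quality, the lack of calls does not show that the genes were unchanged. At an unadjusted p under 0.05 there were 6 genes, 14.3% against 13.1% of all probe sets, 5 higher and 1 lower. The largest positive differences were those of psaJ (1.69), petB (1.66), which encodes cytochrome b6, atpI (1.58) and psaC (1.43), which carries the terminal iron-sulfur clusters of photosystem I. The largest negative ones were psbZ (-2.61), psaI (-1.20), ndhI (-1.04) and psbM (-0.82).

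The 5 genes called in the torpedo apical and basal parts had these differences here, none of them called. psbF differed by -0.15 (SE 1.36), psbL by 0.71 (SE 1.27), petA by 0.78 (SE 0.91), ndhD by 0.08 (SE 0.68) and psaA by -0.53 (SE 0.58). Both comparisons share the heart arrays. psaA had signals of 199.8 and 110.3 in torpedo cotyledon arrays and 245.1 and 27.5 in torpedo root arrays, so torpedo root 3 had the lowest psaA signal among the arrays with 1 decimal and lay within the range of the torpedo basal part. Over the 42 genes the median difference was 0.31, against 0.24 for all probe sets.

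The torpedo meristem was set against the apical and basal parts, all deposited unrounded. No gene passed the limma test (smallest adjusted p = 0.109), while 0.168% of all probe sets did. At an unadjusted p under 0.05, 3 genes were higher and 7 lower in the meristem, 23.8% against 20.6% of all probe sets. No gene lay above the apical and basal arrays on every meristem array (4.82% of all probe sets did), and 4 lay below on every one (9.52%, against 2.5%): psbF, psbM, psbZ and petA. psbF had 153.4, 1839 and 292.1 in meristem arrays, against 2124 to 5317 in apical and basal arrays.

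The negative differences of largest size in the meristem were those of psbZ (-3.55), atpH (-3.35), psaB (-3.28) and psbF (-3.12). psbZ is a small photosystem II subunit, and atpH forms the proton-carrying ring of the ATP synthase. psbZ had 125.5, 528.9 and 135.3 in meristem arrays, against 1473 to 3295 in apical and basal arrays. The largest positive ones were ndhG (1.92), petD (1.88), psbN (1.56) and ndhK (1.35). psaA was low in all of these captures, with 28.1, 3.67 and 67.1 in the meristem and 9.57 to 36.8 in the apical and basal parts. Without torpedo basal 5, petD and psbN passed (limma adjusted p = 0.0320 and 0.0452), and in a fit of only these groups psbZ did (limma adjusted p = 0.0373). The shares of all probe sets called in these alternative fits are not given here. The log2 ratio of the 3' to the 5' actin control was -1.56 to 2.61 in the meristem and 2.40 to 5.31 in the apical and basal parts, and that of GAPDH 6.52 to 8.73 and 5.65 to 8.65. The endosperm markers summed to 22.4 to 174.6 in the meristem and 8.52 to 51.3 in the apical and basal parts, and BAN had 8.16 to 24.5 and 1.72 to 16.3. AGL62, IKU2 and BAN were each below 50 on the apical and basal arrays, and BAN also on the meristem arrays. Such signals do not say whether a transcript was above background. The part of these measures in the meristem differences was not tested.

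From the globular to the heart stage no change was called. The smallest limma adjusted p was 0.720, with 0.0718% of all probe sets called, and no gene had an unadjusted p under 0.05 (6.98% of all probe sets did). The median difference of heart minus globular was -0.08, against -0.23 for all probe sets. The 4 largest positive differences were psaI (1.14), atpH (1.13), psaB (0.97) and ndhI (0.95), and the 4 largest negative ones petA (-1.17), psbE (-1.04), atpF (-1.01) and psbF (-1.01). psbE encodes the alpha subunit of the cytochrome whose beta subunit psbF encodes, and atpF a stalk subunit of the ATP synthase. psbF ran from 4.8 to 808 in heart tissues and from 6.8 to 5044 in globular parts, so the groups overlapped over most of their range.

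Within each stage the poles were compared next. In globular embryos, apical minus basal, no gene was called (smallest limma adjusted p = 1.0, 0.0% of all probe sets called), and only ndhC had an unadjusted p under 0.05, which is 2.38% of the genes against 2.69% of all probe sets. ndhC had 2993, 6407 and 11145 in apical arrays, against 245.8, 7345 and 200.2 in basal arrays, a difference of 3.03. The groups overlapped through globular basal 2. The next largest positive differences were psbJ (1.80), ndhK (1.02) and psaI (0.96). The largest negative ones were atpE (-2.20), atpB (-1.38), which encodes the catalytic beta subunit of the ATP synthase, psbM (-1.14) and ndhJ (-1.02).

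In heart embryos, cotyledon minus root pole, no gene was called (smallest limma adjusted p = 0.575), with 0.00957% of all probe sets called. An unadjusted p under 0.05 was reached by 3 genes, 7.14% against 5.32% of all probe sets. 32 of 42 genes were higher by value in the cotyledon pole, as were 65.7% of all probe sets, and the medians were 0.44 and 0.29. The largest negative difference was psbZ (-3.95), with 201.7, 165.8 and 114.0 in cotyledon arrays, against 243.2, 8510 and 7960 in root arrays. Its root arrays therefore differed among themselves more than heart root 1 differed from the cotyledon arrays. ndhC (-2.20), psbI (-2.08) and psaB (-0.79) followed, and the largest positive differences were psbF (2.41), atpE (2.18), ndhI (1.85) and psbD (1.73), which encodes the D2 reaction-centre protein of photosystem II.

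In torpedo embryos the cotyledon and root captures, with 2 arrays each, again gave no call (smallest limma adjusted p = 0.122, 0.00957% of all probe sets called). At an unadjusted p under 0.05 there were 7 genes, 16.7% against 11.7% of all probe sets. The largest positive differences were those of psaB (5.97), psbI (4.88), psbM (4.73) and ndhC (4.56). psaB had 14844 and 1530 in cotyledon arrays, against 273.9 and 10.4 in root arrays. psbI, a small photosystem II subunit, had 13012 and 2411 in cotyledon arrays, against 160.6 and 202.4 in root arrays. Both root arrays lay below both cotyledon arrays for each of these genes, and both root arrays were among those of low correlation. At the other end were atpI (-2.31), atpH (-2.18), atpA (-1.56) and ndhD (-1.50), of which atpA encodes the alpha subunit of the ATP synthase. The actin 3' to 5' log2 ratio was 1.12 to 1.84 in the cotyledon and -1.46 to -1.21 in the root, and that of GAPDH 5.14 to 6.42 and -3.28 to 6.43. The endosperm markers summed to 37.9 to 78.5 in the cotyledon and 139.4 to 150.0 in the root, and BAN had 8.9 to 9.0 and 15.5 to 27.5. Actin, the endosperm sum and BAN thus separated both groups. BAN was below 50 on all of these arrays, so its signals do not say whether its transcript was above background. The part of these measures in the differences was not tested.

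The torpedo apical and basal parts, 3 arrays each, were compared in the same way. No gene was called (smallest limma adjusted p = 0.999, 0.091% of all probe sets called) or had an unadjusted p under 0.05 (3.91% of all probe sets did), and the median difference was 0.03. Differences ran between psaI (1.78), psbB (1.40), atpF (1.14) and rbcL (1.07) at one end and petG (-1.63), psbN (-1.49), ndhD (-1.21) and atpI (-0.97) at the other. petG is a small cytochrome b6f subunit, and psbN encodes a protein needed in tobacco for the assembly of photosystem II.

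It was also tested whether a polar difference changed between stages. For heart minus globular no gene passed, as was the case for 0.0% of all probe sets, and 2 had an unadjusted p under 0.05 (4.76%, against 4.43%). The largest positive changes were those of atpE (4.38), psbF (2.84), petL (2.59) and psbD (2.14), and the largest negative ones ndhC (-5.22), psbZ (-3.25), psbI (-1.91) and psaC (-1.59). For torpedo cotyledon and root minus heart no gene passed (0.0144% of all probe sets did; smallest limma adjusted p = 0.110, for psbI), and 8 had an unadjusted p under 0.05 (19.0%, against 11.5%). Here psbI (6.96), psaB (6.77), ndhC (6.76) and psbZ (5.55) stood at the positive end and psbF (-3.10), atpI (-2.999), atpF (-2.57) and atpH (-2.39) at the negative end. For torpedo apical and basal minus globular no gene passed (0.00479% of all probe sets did) and none had an unadjusted p under 0.05 (2.79%). Its changes ran from psbB (2.21), atpE (2.13), ndhJ (1.75) and atpB (1.57) to ndhC (-2.85), ndhD (-1.91), ndhK (-1.82) and petG (-1.54).

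Over all 9 groups, limma's F test called psaA alone (adjusted p = 0.0130), which is 2.38% of the 42 genes against 1.25% of all probe sets. 17 genes had an unadjusted p under 0.05, 40.5% against 22.2% of all probe sets. The next smallest adjusted p were those of psaJ (0.0637) and ndhD (0.0690). Without torpedo apical 4 the adjusted p of psaA was 0.0504, so no gene was called. Without heart root 1 the count was 3 (psbZ and atpH beside psaA), and it was 2 without torpedo cotyledon 3, torpedo basal 5, torpedo meristem 1, torpedo meristem 3, globular apical 1 or globular basal 2. The shares of all probe sets called in these fits are not given here, so the added calls cannot be read as particular to these genes.

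The signals of core subunits, and of psaJ, are described over the groups. NDH is not represented, since ndhB was not used. Of these genes the F test over the 9 groups called psaA alone, and whether their patterns differ from each other was not tested. psaA had its highest mean signals in the globular apical and basal parts, at 339.1 ± 95.2 and 325.1 ± 48.6, then 213.4 ± 140.2 and 161.0 ± 69.2 in heart cotyledon and root (SD, n = 3 each). The torpedo cotyledon and root means were 155.1 ± 63.3 and 136.3 ± 153.9 (SD, n = 2 each), and those of the torpedo meristem, apical and basal groups 33.0 ± 32.0, 15.6 ± 5.67 and 27.0 ± 15.1 (SD, n = 3 each). Neighbouring groups in this order lay within each other's spread except at the step to the last 3 groups, where torpedo root 3 alone lay inside their range. psaJ had its highest means in the torpedo stage, at 222.4 ± 237.2 in cotyledon, 144.8 ± 74.6 in root (SD, n = 2 each), 529.4 ± 641.8 in meristem, 289.8 ± 92.7 in apical and 261.7 ± 256.2 in basal arrays (SD, n = 3 each). Its means were 31.2 ± 13.0 and 19.0 ± 14.4 in globular apical and basal arrays, and 49.8 ± 15.1 and 29.1 ± 8.11 in heart cotyledon and root arrays (SD, n = 3 each).

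rbcL averaged 102.3 ± 36.7 and 113.9 ± 23.6 in globular apical and basal arrays, and 121.7 ± 75.0 and 78.1 ± 15.2 in heart cotyledon and root arrays (SD, n = 3 each). In the torpedo stage it averaged 72.0 ± 21.4 in cotyledon and 128.3 ± 30.9 in root arrays (SD, n = 2 each), and 319.3 ± 176.3 in meristem, 492.1 ± 196.5 in apical and 292.5 ± 245.2 in basal arrays (SD, n = 3 each). The last 3 groups had the highest means, with overlap through torpedo basal 4 and torpedo meristem 3. The ranges of psbA overlapped in all 9 groups. It averaged 62.2 ± 40.5 and 83.4 ± 32.1 in globular apical and basal, 199.1 ± 171.5 and 62.8 ± 45.1 in heart cotyledon and root, and 87.2 ± 82.4, 97.8 ± 45.5 and 72.5 ± 26.2 in torpedo meristem, apical and basal arrays (SD, n = 3 each). Its torpedo cotyledon and root means were 62.0 ± 75.9 and 88.0 ± 88.1 (SD, n = 2 each).

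petB averaged 44.6 ± 49.7 and 53.8 ± 52.5 in globular apical and basal arrays and 86.6 ± 101.4 and 67.2 ± 13.8 in heart cotyledon and root arrays (SD, n = 3 each). In the torpedo stage its signals were 1620 and 74.3 in cotyledon and 86.0 and 184.9 in root arrays, and its means were 192.6 ± 230.9 in meristem, 263.3 ± 111.5 in apical and 240.9 ± 131.5 in basal arrays (SD, n = 3 each). The high cotyledon value rested on 1 array. atpB averaged 27.6 ± 22.4 and 80.0 ± 48.5 in globular apical and basal arrays and 40.3 ± 30.1 and 37.0 ± 24.0 in heart cotyledon and root arrays (SD, n = 3 each). It had 65.8 and 141.1 in torpedo cotyledon and 119.4 and 10.3 in torpedo root arrays, and averaged 191.0 ± 72.0 in meristem, 120.3 ± 51.3 in apical and 125.8 ± 112.4 in basal arrays (SD, n = 3 each). psaB had the widest range of the 42 genes: it averaged 1148 ± 1587 and 365.7 ± 200.4 in globular apical and basal, 2501 ± 4005 and 1641 ± 1625 in heart cotyledon and root, and 3032 ± 4753, 10638 ± 790.5 and 7901 ± 5031 in torpedo meristem, apical and basal arrays (SD, n = 3 each).

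The arrays of a group differed among themselves. The median within-group SD of the 42 genes was 1.11 on the log2 scale (0.61 to 2.53), against 0.98 for all probe sets, and 10 of them (23.8%) exceeded 1.5, as did 10.8% of all probe sets. The widest were psbF (2.53), psaI (2.39), psbL (2.37), psaB (2.07) and atpE (2.02), and the narrowest psbD (0.61) and ndhA (0.63). psbF in globular parts shows what such a spread means: 4676, 46.3 and 6.8 in apical arrays and 14.9, 5044 and 76.5 in basal arrays, so that 1 array in each group lay in the range of the torpedo parts. With 10 added, the highest signal of a gene over its lowest was 6.59-fold for ndhH and 728-fold for psaB, and 9 genes exceeded 100-fold. Torpedo apical arrays agreed best, with a median SD of 0.50 for these genes and 0.49 for all probe sets.

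The signals of genes of 1 operon were mostly weakly correlated over these arrays. After group means were removed, Pearson's r over the 25 arrays had a median of 0.15 over 51 pairs of genes from the same operon and of 0.03 over the 810 other pairs, and 3.9% and 3.7% of pairs exceeded 0.5. The points share arrays and their quality, and genes of an operon share transcripts, so these values are a description only. The pair of highest r was psbF and psbL, neighbours in the psbE operon (r = 0.88, and 0.90 with group means kept). All 6 pairs of psbE, psbF, psbL and psbJ were positive, between 0.31 and 0.88. psaA and psaB had r = -0.05, and the 21 pairs of the operon of ndhH, ndhA, ndhI, ndhG, ndhE, psaC and ndhD ran between -0.37 and 0.41. In this operon ndhH and ndhE reached a signal of 50 on 3 arrays each, psaC on 6 and ndhG on 9. ndhA and ndhI reached it on 21 and ndhD on 24. Low signals do not say whether a transcript was above background, so a low r there does not describe the operon.

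**Figure D5:**
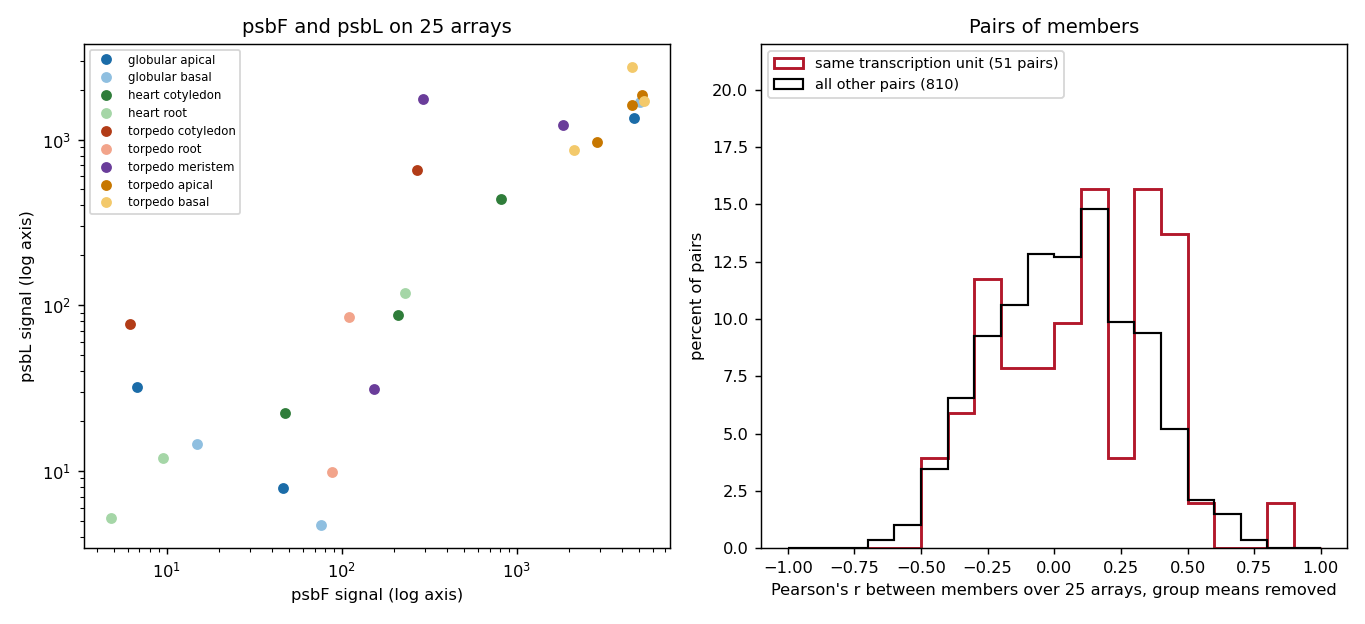
Left, psbL signal against psbF signal on 25 arrays (log axes, coloured by group). Right, distribution of Pearson's r between genes over the arrays after group means were removed, for 51 pairs of the same operon and 810 other pairs; the medians are 0.15 and 0.03, and the pair at 0.88 is psbF and psbL.

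Among pairs from different operons the highest r were those of psbM and ndhA (0.74), psbT and ndhJ (0.72) and psaA and petD (0.70). Both psaA and petD had negative differences between the torpedo parts and heart tissues, of which that of petD did not pass. psbF and ndhD had r = 0.69, and psaB and petB 0.68. Among pairs not of the same operon, those within a complex were no closer than those across complexes, with medians of -0.04 over 137 pairs and 0.04 over 673.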

How the data were processed

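The authors' deposited signals are linear intensity values. Per the submitters' processing notes the tool was MAS5, and its version and settings were not found in the labels. Probe sets were named from the platform's gene table, with identifiers updated through NCBI RefSeq names (TAIR10.1; 13436 matched; 13513 probe sets with 1 gene, 503 with several, 8794 with none), and no coordinates are given. The 64 control probe sets were left out, 10 was added, and limma 3.58.1 (R 4.3.3) was fitted to log2 values (1 mean for each of 9 groups, eBayes with an intensity trend) over 25 arrays, 2-sided, with Benjamini-Hochberg adjustment over 20890 probe sets. The number of arrays limits the precision. Each comparison names every gene past 0.05 and the 4 largest differences each way; core subunits are given in every group. Other genes were named after their values were seen. The genes, lists and comparisons were chosen with earlier results of these data known. The fit was tested on simulated data. Alternatives covered normalization, added constant, filter, trend, weights, the arrays used and the replicate number as a block. Same-numbered arrays of a stage had correlations of deviations between -0.086 and 0.380, and different-numbered ones between -0.236 and 0.15. In the heart stage the same-numbered arrays had 0.380, 0.147 and 0.068. The main fit did not take the numbers as pairs, and whether they are pairs is not known.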

Additional observations from a re-analysis of the deposited data

How the results depend on the processing

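In torpedo apical and basal parts against heart tissues 5 genes were called, 3 with quantile normalization (ndhD, psbF and psaA), 3 without arrays of low correlation (ndhD, psaA and petA), 11 with array weights and 2 to 7 when each array was left out in turn. All probe sets called numbered 264, against 153, 167, 2486 and 72 to 857 in the same fits and 532 with 1 added. Over the 9 groups the count of 1 became 2 with median centring (psaJ added), without an intensity trend (psbI added) or with the 2 unassigned arrays added by title (psaJ added), 13 with array weights, and 0 to 3 when arrays were left out. In torpedo cotyledon against root psbT alone passed with 50 added or with the unassigned arrays by title (1 gene each), the change of this polar difference from the heart stage had 1 call (psbI) without an intensity trend, and the meristem comparison had 1 (psbZ) with only the groups compared and 0 to 2 when arrays were left out. For these comparisons and the 9 groups, counts of all probe sets in the same alternative fits are not given here. A changed count there cannot be read as particular to these genes. With the replicate number as a block no gene was called in the 6 comparisons where the groups share numbers, and all probe sets called were 9, against 19, in torpedo apical against basal, 1, against 2, in torpedo cotyledon against root, and 0, against 4, in torpedo cotyledon and root against heart. The block gave each replicate number 1 effect over all stages, and was not a pairing within a stage. It was not used for the meristem comparison and for torpedo apical and basal against heart, because the groups compared there share no numbers. No gene had several probe sets, so their mean was not run.

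Medians of complexes moved by more than the spread between arrays in these cases. For torpedo cotyledon minus root the median of the 42 genes (0.21) was 0.52 with quantile normalization, 0.50 with median centring, 0.30 with 1 added, 0.54 with the filter at 100, 0.39 with the unassigned arrays by title and -0.12 by tissue description. There, by title, photosystem II was 0.98, the ATP synthase -0.14 and rbcL -0.32 (-0.33 with quantile normalization), and by tissue description cytochrome b6f was -0.44. With median centring the median of the 42 genes was 0.13 for the heart poles, -0.92 for the meristem, 0.20 for heart minus globular and 0.064 for torpedo cotyledon and root minus heart, and that of photosystem II 0.30, -1.69 and 0.30 in the first 3 of these. With quantile normalization photosystem II was 0.31 in heart minus globular, and the 42 genes -0.061 in torpedo cotyledon and root minus heart, where the filter at 100 gave 0.086 and the unassigned arrays, added either way, gave photosystem II 0.40. In the meristem photosystem I was -1.25 with the filter at 100 and -0.79 without arrays of low correlation, which gave photosystem II -0.38. Without arrays of high controls photosystem II was -0.024 in globular apical minus basal.

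When arrays were left out in turn, the median of the 42 genes ran from 0.19 to 0.60 for the heart poles, 0.082 to 0.53 for torpedo cotyledon minus root and 0.11 to 0.38 for torpedo cotyledon and root minus heart. Photosystem II ran from -0.39 to 0.030 (globular poles), 0.35 to 1.06 (heart poles), 0.38 to 1.51 (torpedo cotyledon minus root), -1.47 to -0.35 (meristem) and -0.36 to 0.23 (torpedo cotyledon and root minus heart). Photosystem I ran from -0.13 to 0.76 in torpedo apical minus basal and -0.79 to 0.31 in the meristem. NDH ran from 0.0081 to 0.51 in the globular poles and -1.09 to 0.82 in torpedo cotyledon minus root. Cytochrome b6f ran from -0.19 to 0.53 in torpedo cotyledon minus root, -0.17 to 0.73 in heart minus globular and 0.21 to 1.22 in torpedo apical and basal minus heart.

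4 genes named for their size changed sign in comparisons in which they were not called: psaB in the heart poles was 0.27 with array weights and ran from -2.53 to 0.25 when arrays were left out, atpA in torpedo cotyledon minus root was 0.053 by tissue description, psbF in heart minus globular ran from -1.84 to 0.20 (0.12 without globular basal 2), and psaI in torpedo cotyledon and root minus heart from -2.79 to 0.38. These were 7 values. The causes were not tested.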

Other observations

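The 2 arrays that entered no comparison differed from each other in many chloroplast genes. The array titled torpedo cotyledon 2 had signals of 11590 for psbF, 3254 for psbL, 1807 for petA, 708.7 for ndhD, 10451 for psaB and 105.6 for psaA. The array titled torpedo root 2 had 566.3 for psbF, 273.6 for psbL, 136.4 for petA, 104.1 for ndhD, 229.6 for psaB and 367.2 for psaA. Further values were 5468 and 20.8 for atpE, 2718 and 11.0 for psaI, 6499 and 357.9 for ndhC, 5115 and 158.4 for psbZ, and 5.9 and 2923 for ndhJ, in the order cotyledon title, root title. psbH, which did not enter the tests, had 6.8 and 171.4 in this order, and the second is the highest psbH signal of the 27 arrays. Of these genes psaA, ndhJ and psbH were lower, and the others higher, under the cotyledon title. The median deviation of the 42 genes was 0.46 under the cotyledon title and -0.15 under the root title.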
